A study of Homo sapiens with 6 samples.

Results

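The Hippo pathway genes, their transcriptional partners and their targets were examined in the colorectal cancer cell line SW620, an established human line, with and without added ELAPOR1. The set holds 33 genes of the 60605 in the deposited table. They were found by gene symbol and comprise the core kinases and their adaptors, upstream and junctional regulators, the coactivators YAP1 and WWTR1 (the gene of TAZ), the TEAD factors, the TEAD competitor VGLL4 and 10 target genes.

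Both groups are SW620 cells transduced with lentivirus at a multiplicity of 20 and selected with puromycin at 2 ug/ml in medium with 10% fetal bovine serum. The vector group (3 libraries) carries empty pLVX-IRES-Puro, and the ELAPOR1 group (3 libraries) carries pLVX-IRES-Puro-ELAPOR1. Whether each population was a pool or 1 clone, and whether the 3 libraries of a group came from separate cultures, the sources used here do not say. The p-values therefore compare the difference between groups with the scatter of these libraries, and that scatter may be technical. If each group is 1 transduced population, an effect of ELAPOR1 and a difference between 2 populations cannot be told apart, however small the p. TMM factors lay between 0.990 and 1.01.

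In the Hippo pathway the kinases encoded by STK3 and STK4 (MST2 and MST1), with the scaffold SAV1, activate the kinases LATS1 and LATS2, with the MOB1 adaptors. The LATS kinases phosphorylate YAP and TAZ, which are then held in the cytoplasm or degraded. Unphosphorylated YAP and TAZ enter the nucleus, bind TEAD factors and raise genes such as CCN1 and CCN2. YAP is known in the intestine for its part in regeneration and in colorectal tumour growth. Its activity is set largely by phosphorylation and location, which mRNA counts do not measure.

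ELAPOR1 checked the labels: it stood at 11.5, 10.99 and 8.73 CPM (counts scaled to library size with TMM factors) in the vector libraries and at 21494, 21112 and 20771 CPM in the ELAPOR1 libraries. Counts summed to between 16401813 and 20571924 per library. Among 10 colonic epithelial markers 9 were tested, 5 were lower (55.6%) and 1 was higher (11.1%). Over all tested genes 11.4% were lower and 10.0% higher, 21.4% in all. The summed level of the 10 markers was 8437 to 8832 CPM in vector and 7853 to 7867 CPM in ELAPOR1 libraries. Of these, CDX1, an intestinal factor gene, had 3 counts in all. Fibroblast markers summed to 17.5 to 18.8 CPM in vector and 24.9 to 30.1 CPM in ELAPOR1 libraries. LUM alone of these 7 genes was called, 1 of 3 tested (33.3%), and COL1A2, COL3A1, DCN and FAP had 1 to 3 counts in all. Of the immune, endothelial, and kidney or neuronal markers edgeR tested 3, 2 and 2 and called 0; 1 of the kidney or neuronal pair had an unadjusted p under 0.05, and DESeq2 with its default trend called 0 of any of these lists. CDH5, KDR, TEK, NEFM and SNAP25 were at 0. The part of these marker levels in the results below was not tested. In bulk RNA, a change in the share of cells that express a gene and a change in RNA per cell cannot be told apart.

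YAP1 was by far the most abundant of the 33 genes. Per kilobase of exon it stood at 64.0, 58.5 and 61.1 FPKM in the vector libraries, while WWTR1 stood at 1.81, 1.94 and 1.94 FPKM. YAP1 thus made up 97.0 ± 0.235% of the summed FPKM of both coactivators in vector cells and 96.9 ± 0.343% in ELAPOR1 cells (SD, n = 3). Of the TEAD factors, TEAD1 at 27.1 ± 1.47 FPKM and TEAD4 at 25.01 ± 0.283 FPKM exceeded TEAD3 at 2.55 ± 0.0503 and TEAD2 at 2.51 ± 0.426 FPKM in vector cells, and the last pair overlapped. Among kinases, STK4 at 16.1 ± 0.256 FPKM stood above its paralog STK3 at 1.60 ± 0.0902, and LATS1 at 7.61 ± 0.406 stood above LATS2 at 1.52 ± 0.0755. MOB1A, at 30.3 ± 1.15 FPKM, was second in the set after YAP1.

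Most of the targets were scarce beside YAP1, TEAD1 and TEAD4, although FJX1 exceeded TEAD2, TEAD3 and WWTR1, and AXL overlapped TEAD2 and TEAD3. In vector cells 7 of the 33 genes lay at or above 10 FPKM, 16 between 1 and 10, and 10 below 1, and 8 of the 10 below 1 FPKM were targets. FJX1, a secreted and Golgi kinase-like protein gene, was the highest target at 6.69 ± 0.429 FPKM, followed by AXL, a receptor tyrosine kinase gene, at 2.67 ± 0.407 FPKM. The matricellular genes CCN2 and CCN1, the most used readouts of YAP activity, lay at 0.643 ± 0.0551 and 0.380 ± 0.0866 FPKM. Exonic length here is that of the deposited table, so FPKM of a gene with long alternative exons is lowered.

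**Figure D1:**
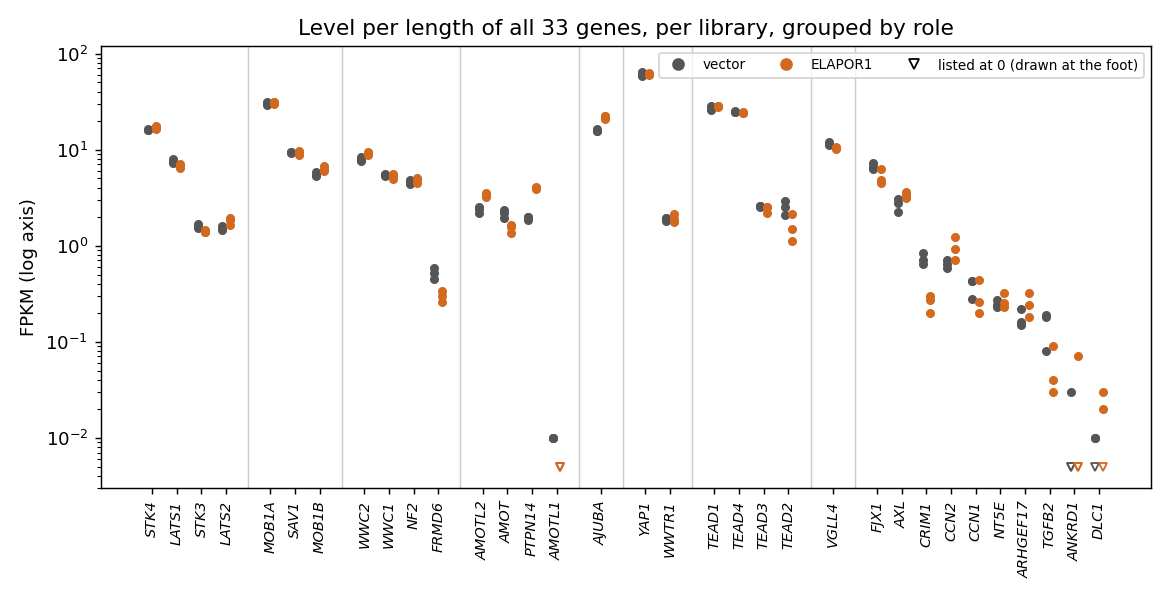
FPKM on a log axis of each of the 33 genes in the 3 vector and 3 ELAPOR1 libraries, 1 point per library, grouped by role as in the text. YAP1 lies near 61 FPKM in both groups, while 8 of the 10 targets lie below 1 FPKM in vector cells; open triangles mark values listed at 0.

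Of the 33 genes 29 passed the filter on low counts, and 12 of these were called by edgeR's quasi-likelihood test at an adjusted p under 0.05: 7 higher (24.1%) and 5 lower (17.2%) in ELAPOR1 cells. The background was 21.4% of all 16003 tested genes, 10.0% higher and 11.4% lower. The median log2 fold change of the 29 was 0.046, against 0.0041 over all tested genes, and the median absolute change was 0.22 against 0.14. The groups did not overlap for 15 of the 29 (51.7%), where the background was 33.8%. Those 15 comprise 10 of the 12 called genes and 5 that were not called. The 4 genes below the filter are AMOTL1, ANKRD1, DLC1 and TGFB2. The authors' deposited table gives an adjusted p under 0.05 for 12 of the 33, 7 higher and 5 lower, and all 12 are the genes called here.

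**Figure D2:**
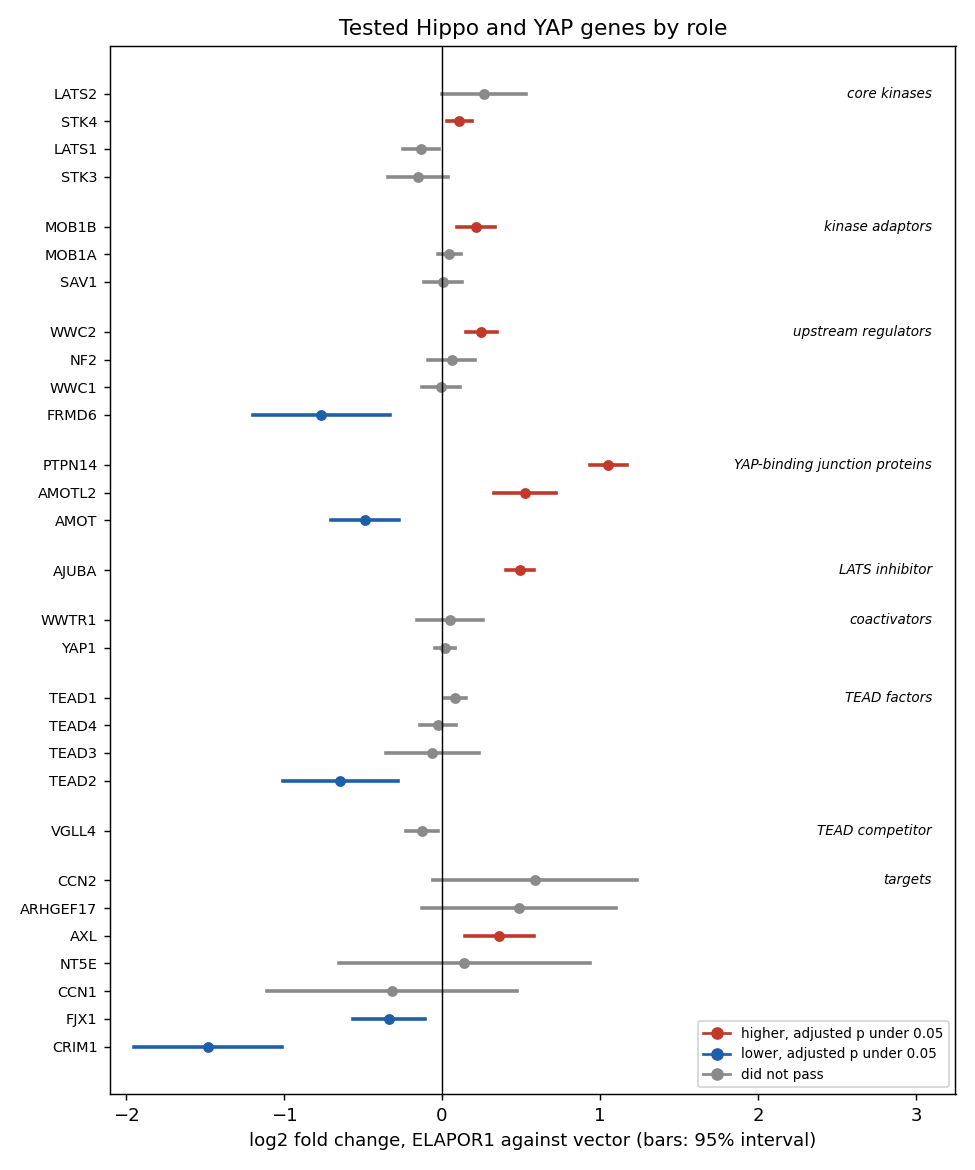
log2 fold change of ELAPOR1 against vector (x axis) for the 29 tested genes, grouped by role, with 95% intervals from the edgeR fit. PTPN14 at 1.05 and CRIM1 at -1.48 mark the ends, and YAP1 lies at 0.020.

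Of the genes of proteins that bind YAP at cell junctions, all 3 that could be tested were called, 2 higher and 1 lower, where 21.4% of all tested genes were called. PTPN14 encodes a non-receptor tyrosine phosphatase that binds YAP, and is itself a YAP target (ENSG00000152104, GRCh38 chromosome 1, 214348700 to 214552449, minus strand). It was at 36.7, 34.8 and 37.3 CPM in the vector libraries and 74.4, 76.2 and 74.7 CPM in the ELAPOR1 libraries. The groups lay far apart, and libraries within each group were close. PTPN14 rose 2.07-fold, a log2 fold change of 1.05 ± 0.0589 (SE) with an adjusted p of 7.05e-25 by edgeR.

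The angiomotin family split. AMOTL2, an angiomotin-like scaffold that holds YAP at junctions and is a YAP target (ENSG00000114019, chromosome 3, 134355347 to 134375479, minus strand), was at 14.1, 16.3 and 15.3 CPM in vector and 22.4, 22.8 and 20.8 CPM in ELAPOR1 libraries. It rose 1.44-fold with no overlap (log2 0.53 ± 0.0977 SE, adjusted p of 1.87e-05 by edgeR). AMOT, the founding member (ENSG00000126016, chromosome X, 112774503 to 112840831, minus strand), went the other way, at 20.0, 16.37 and 18.6 CPM in vector and 14.1, 13.3 and 11.7 CPM in ELAPOR1 libraries. It fell by 0.49 on the log2 scale (SE 0.108, adjusted p of 0.000321 by edgeR), again with no overlap. AMOTL1 had 1, 2 and 1 counts in the vector libraries and 0 in the 3 ELAPOR1 libraries. A count of 0 there allows up to 0.182, 0.156 and 0.167 CPM (3 counts per library, counting error only), so no fold is given.

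AMOTL2 accordingly took 47.9%, 56.6% and 52.0% of the summed FPKM of the 3 angiomotin genes in vector libraries and 67.5%, 69.2% and 70.0% in ELAPOR1 libraries. The ranges did not overlap. In a two-sided exact permutation test the p was 0.1, the smallest that 3 against 3 allows, and 0.2 adjusted over the 10 family shares compared. Smaller shifts without overlap were seen for LATS1 among the LATS kinases (83.3 ± 0.831% to 79.0 ± 1.84%) and for WWC2 of WWC1 and WWC2 (59.2 ± 0.949% to 63.4 ± 1.98%). STK4 went from 91.0 ± 0.580% to 92.3 ± 0.265% of the MST kinases and MOB1A from 84.6 ± 0.451% to 83.0 ± 0.902% of the MOB1 genes. Each of these had the same p of 0.1, also exact. The shares of YAP1 and of each TEAD factor overlapped between groups.

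AJUBA, a LIM-domain protein that binds and restrains LATS kinases at junctions (ENSG00000129474, chromosome 14, 22971177 to 22982551, minus strand), was at 91.4, 90.6 and 94.9 CPM in vector and 132, 134 and 125 CPM in ELAPOR1 libraries. The groups were well separated, and AJUBA rose 1.41-fold (log2 0.50 ± 0.0444 SE, adjusted p of 4.85e-15 by edgeR).

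**Figure D3:**
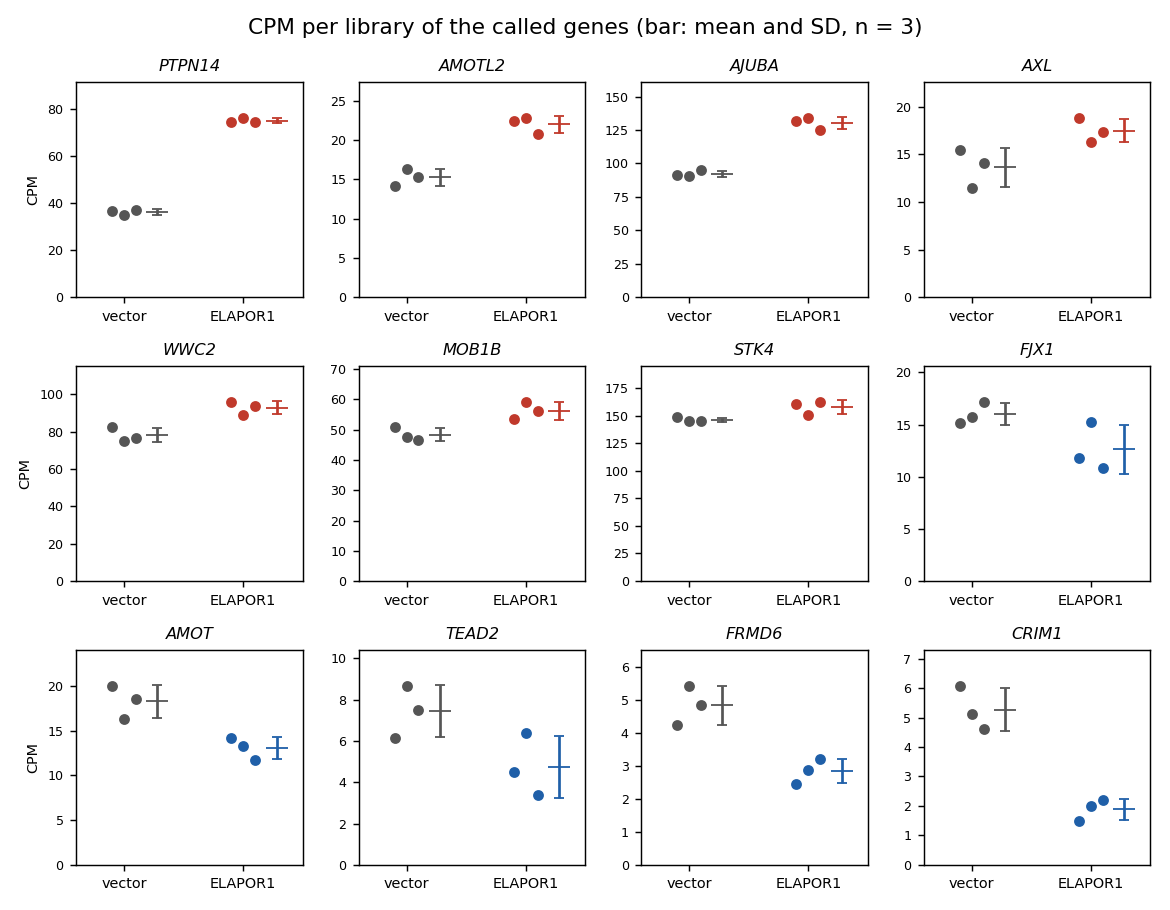
CPM of each of the 12 called genes per library (points, y axes from 0), with the mean and SD of the 3 vector and the 3 ELAPOR1 libraries beside them. PTPN14 and CRIM1 show the widest gaps between groups, and TEAD2 and FJX1 are the called genes whose groups overlap.

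The kinases and their adaptors changed little. STK4 was at 149, 145 and 145 CPM in vector and 161, 151 and 163 CPM in ELAPOR1 libraries, a rise of 0.11 on the log2 scale (adjusted p of 0.0364 by edgeR). That call was lost when 1 library was left out, with adjusted p of 0.104 and 0.111 without vector replicates 2 and 3 in turn, and of 0.144 and 0.207 without ELAPOR1 replicates 1 and 3 in turn. It was also lost with library sizes alone as scaling, at 0.101. STK3 had a log2 fold change of -0.15 (95% interval -0.34 to 0.040), LATS1 of -0.13 (-0.25 to -0.021) and LATS2 of 0.27 (0.0016 to 0.53). Their adjusted p were 0.290, 0.0815 and 0.154 by edgeR. None of the 3 overlapped between groups, as was so for 33.8% of all tested genes. With library sizes alone as scaling, LATS1 passed at 0.0380. That scaling moved the median log2 fold change of all tested genes from 0.0041 to -0.017.

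Of the adaptors, MOB1B was at 50.8, 47.7 and 46.6 CPM in vector and 53.4, 59.2 and 56.1 CPM in ELAPOR1 libraries. It rose by 0.22 on the log2 scale (SE 0.0605, adjusted p of 0.00487 by edgeR), a call lost without ELAPOR1 replicate 2 at an adjusted p of 0.0628. MOB1B shares 199 exonic bases with DCK on the same strand, which had 8376 counts in all against 5750 for MOB1B and a log2 fold change of 0.11 that did not pass (adjusted p of 0.130). Its more abundant paralog MOB1A had a log2 fold change of 0.046 (95% interval -0.028 to 0.12) and SAV1 of 0.0061 (-0.11 to 0.13), and the groups overlapped for both. SAV1 shares 840 exonic bases with ATL1 on the other strand, which had 1322 counts in all against 5743; without the strand setting, reads in such shared bases cannot be told apart.

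Upstream of the kinases, 1 gene of 4 was higher and 1 lower (50.0% called, background 21.4%), and 2 were not called. WWC2, of the KIBRA scaffold family that promotes LATS activity, was at 82.3, 75.0 and 76.8 CPM in vector and 95.8, 88.8 and 93.8 CPM in ELAPOR1 libraries and rose by 0.25 on the log2 scale (SE 0.0496, adjusted p of 6.14e-05 by edgeR). FRMD6 (Willin), a FERM-domain protein at the membrane (ENSG00000139926, chromosome 14, 51489100 to 51730727, plus strand), was at 4.24, 5.42 and 4.85 CPM in vector and 2.46, 2.87 and 3.20 CPM in ELAPOR1 libraries. It fell by 0.76 on the log2 scale (SE 0.217, adjusted p of 0.00609 by edgeR), with no overlap but on 40 to 112 counts per library, and was at an adjusted p of 0.0501 without vector replicate 2. WWC1, the gene of KIBRA itself, had a log2 fold change of -0.0054 (95% interval -0.12 to 0.11), and NF2, the gene of the tumour suppressor Merlin, of 0.060 (-0.086 to 0.21).

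The coactivators were not called. YAP1 (ENSG00000137693, chromosome 11, 102110447 to 102233424, plus strand) was at 400, 368 and 384 CPM in vector and 391, 375 and 402 CPM in ELAPOR1 libraries. Its 95% interval of log2 fold change, -0.044 to 0.085, is among the narrowest of the set. WWTR1 was at 14.97, 16.2 and 16.1 CPM in vector and 18.1, 16.1 and 14.8 CPM in ELAPOR1 libraries, with an interval of -0.16 to 0.26. The antisense gene WWTR1-AS1 shares 795 exonic bases with it and had 34 counts in all against 1758. The adjusted p were 0.737 and 0.815 by edgeR.

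Of the DNA-binding partners 25.0% were called, where 21.4% of all tested genes were: only TEAD2 (ENSG00000074219, chromosome 19, 49340595 to 49362457, minus strand). It was at 6.13, 8.67 and 7.52 CPM in vector and 4.49, 6.37 and 3.37 CPM in ELAPOR1 libraries, so that ELAPOR1 replicate 2 lay within the vector range. TEAD2 fell by 0.64 on the log2 scale (SE 0.181, adjusted p of 0.00574 by edgeR), and the adjusted p was 0.0719 without vector replicate 2 and 0.0969 without ELAPOR1 replicate 3. TEAD2 shares 319 exonic bases with CD37 on the other strand, which had 108 counts in all against 678 and a log2 fold change of -1.08 (adjusted p of 0.0721). TEAD2 held 4.40 ± 0.805% of the summed TEAD FPKM in vector cells and 2.79 ± 0.889% in ELAPOR1 cells. The dominant factors TEAD1 and TEAD4 had log2 fold changes of 0.085 (95% interval 0.017 to 0.15, adjusted p of 0.0658) and -0.025 (-0.14 to 0.089, adjusted p of 0.826) by edgeR. TEAD1 passed without vector replicate 1, at an adjusted p of 0.00337. TEAD3 had a log2 fold change of -0.060 (-0.35 to 0.23).

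VGLL4, a transcriptional cofactor that competes with YAP for TEAD, was at 85.1, 80.7 and 83.0 CPM in vector and 75.8, 74.4 and 77.9 CPM in ELAPOR1 libraries. The groups did not overlap, but with a log2 fold change of -0.13 its adjusted p was 0.0626 by edgeR. It passed with library sizes alone as scaling, at 0.0246, where the median log2 fold change of all tested genes was also lower, at -0.017. VGLL4 shares 1596 exonic bases with ATG7 on the other strand, whose 2273 counts compare with 8745 for VGLL4 and which rose by 0.33 (adjusted p of 0.00796).

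Of the 10 targets 1 rose, 2 fell, 4 did not pass and 3 were below the filter. The 3 calls are 42.9% of the 7 tested targets, where 21.4% of all tested genes were called, 10.0% higher and 11.4% lower. CRIM1 encodes a membrane protein that binds bone morphogenetic proteins (ENSG00000150938, chromosome 2, 36355778 to 36551135, plus strand). It was at 6.08, 5.13 and 4.61 CPM in vector and 1.48, 1.98 and 2.19 CPM in ELAPOR1 libraries. All ELAPOR1 libraries lay far below the lowest vector value. CRIM1 fell by 1.48 on the log2 scale, 2.79-fold (SE 0.234, adjusted p of 6.38e-07 by edgeR), on 24 to 119 counts per library. Its span overlaps FEZ2 on the other strand, with 0 shared exonic bases, and FEZ2 had a log2 fold change of -0.17 (adjusted p of 0.242).

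FJX1 was at 15.1, 15.7 and 17.2 CPM in vector and 11.7, 15.2 and 10.8 CPM in ELAPOR1 libraries, with ELAPOR1 replicate 2 inside the vector range. It fell by 0.34 on the log2 scale (SE 0.114, adjusted p of 0.0248 by edgeR). The adjusted p was 0.116 without vector replicate 3, and 0.104 and 0.206 without ELAPOR1 replicates 1 and 3 in turn. AXL was at 15.4, 11.4 and 14.1 CPM in vector and 18.8, 16.3 and 17.4 CPM in ELAPOR1 libraries, with no overlap. AXL rose by 0.36 (SE 0.109, adjusted p of 0.0104 by edgeR), a call lost without vector replicate 2 at 0.154 and without ELAPOR1 replicate 1 at 0.0699.

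The canonical targets gave no call. CCN2 was at 1.38, 1.501 and 1.64 CPM in vector and 1.66, 2.19 and 2.92 CPM in ELAPOR1 libraries, which did not overlap but lay close. Its log2 fold change was 0.59 (95% interval -0.056 to 1.23, adjusted p of 0.206 by edgeR). CCN1 was at 1.02, 1.60 and 1.58 CPM in vector and 0.984, 1.62 and 0.729 CPM in ELAPOR1 libraries, with an interval of -1.11 to 0.47. NT5E, which encodes the ectonucleotidase CD73, had an interval of -0.65 to 0.94, and ARHGEF17, a guanine nucleotide exchange factor gene, of -0.12 to 1.10. These 4 genes had 13 to 52 counts per library, and a rise of the size seen for AMOTL2 (0.53) lies inside the intervals of CCN2, NT5E and ARHGEF17.

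Of the targets below the filter, TGFB2, a TGF-beta ligand gene, had 22, 22 and 8 counts in vector and 4, 10 and 3 in ELAPOR1 libraries. The ranges overlapped, and edgeR with no filter gave an adjusted p of 0.0895. In fits that left out 1 library and let TGFB2 pass, the adjusted p was 0.0359 without vector replicate 3, and 0.159, 0.0317 and 0.218 when ELAPOR1 replicates 1, 2 and 3 were left out in turn. DLC1, a tumour suppressor gene, had 3, 0 and 2 counts in vector and 4, 7 and 0 in ELAPOR1 libraries. ANKRD1, a nuclear and sarcomeric ankyrin repeat protein gene, had 0, 1 and 0 counts in vector and 2, 0 and 0 in ELAPOR1 libraries. The floor of 3 counts lies between 0.146 and 0.183 CPM per library.

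Promoter windows of the members were searched for the core of the TEAD-binding M-CAT element, CATTCC on either strand (GGAATG on the other). The RefSeq windows (GRCh38.p14) run from 250 bases before to 50 bases after each start site. Of the 33 genes 26 had an entry, with 38 windows. Those without are ARHGEF17, CCN1, CRIM1, DLC1, STK3, TEAD1 and TEAD4. The hexamer was present for 10 of the 26 (38.5%), against 16.7% of all 27305 genes in the table. By window it was present in 10 of the members' 38 (26.3%), against 14.0% of all 35116 windows. The members had 1.46 windows per gene and all genes 1.29. It was found for 5 of the 7 genes called higher (PTPN14, AMOTL2, AJUBA, AXL and WWC2), for 0 of the 4 called lower with an entry, for 3 of 12 not called (CCN2, LATS2 and YAP1) and for 2 of 3 below the filter (ANKRD1 and TGFB2). For AMOTL2, AJUBA and AXL it was only in a window inside the gene's span, not in the window at the 5′ end. Which start sites these cells use was not measured. CCN2, ANKRD1 and WWC2 held 2 or more in 1 window, as did 1.68% of all genes. The AP-1 element TGANTCA, which is often near TEAD sites and was searched in the same windows, was present for 3 of the 26 genes and for 9.37% of all. The set was chosen to include YAP targets, so its share of hexamers cannot be told apart from that choice. The motifs and this grouping were chosen after the calls were known, and a match is a description of letters, not evidence of binding.

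The windows of CCN2, PTPN14 and WWC2 are shown because they pair the hexamer with 3 different outcomes: 3 copies beside a low gene with no call, 1 copy beside the largest rise of the set, and 2 copies beside a small rise. Each is the 250 bases before the start site, 5′ to 3′, with the hexamers in capitals.
CCN2, chr6:131951373-131951622, minus strand: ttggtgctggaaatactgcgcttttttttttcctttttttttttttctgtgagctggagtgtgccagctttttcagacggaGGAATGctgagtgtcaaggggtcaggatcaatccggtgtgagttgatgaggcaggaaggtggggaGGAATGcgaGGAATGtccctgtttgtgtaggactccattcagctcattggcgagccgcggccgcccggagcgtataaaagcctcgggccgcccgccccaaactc
PTPN14, chr1:214551603-214551852, minus strand: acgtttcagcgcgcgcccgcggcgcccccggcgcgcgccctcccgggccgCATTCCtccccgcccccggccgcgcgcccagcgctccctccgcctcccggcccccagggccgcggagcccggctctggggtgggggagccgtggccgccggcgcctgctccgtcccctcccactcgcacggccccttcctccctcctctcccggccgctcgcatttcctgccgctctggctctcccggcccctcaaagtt
WWC2, chr4:183099007-183099256, plus strand: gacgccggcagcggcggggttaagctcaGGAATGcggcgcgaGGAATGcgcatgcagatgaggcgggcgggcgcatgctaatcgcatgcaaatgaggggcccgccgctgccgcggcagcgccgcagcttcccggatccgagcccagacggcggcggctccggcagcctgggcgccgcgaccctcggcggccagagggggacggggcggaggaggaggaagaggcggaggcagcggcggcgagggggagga

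In the CCN2 window the copies begin 169, 104 and 95 bases before the start, in PTPN14 the copy begins 200 bases before, and in WWC2 the copies begin 222 and 208 bases before. For AMOTL2, AJUBA and AXL, which have 2 windows each, only 1 of the 2 holds the hexamer, the one inside the gene's span. Those sites are shown with 12 bases on either side, as are both sites of ANKRD1, the target with the fewest counts.
AMOTL2, chr3:134374499-134374528, minus strand: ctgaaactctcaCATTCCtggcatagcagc
AJUBA, chr14:22976884-22976913, minus strand: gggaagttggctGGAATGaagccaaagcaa
AXL, chr19:41226531-41226560, plus strand: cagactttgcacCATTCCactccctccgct
ANKRD1 site 220 bases before the start, chr10:90921290-90921319, minus strand: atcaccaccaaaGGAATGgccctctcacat
ANKRD1 site 128 bases before the start, chr10:90921198-90921227, minus strand: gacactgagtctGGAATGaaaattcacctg

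In GENCODE 29 the AMOTL2 and AJUBA sites and the nearer ANKRD1 site lie within an annotated exon of the same gene, and the other sites shown lie in no exon of their gene. ANKRD1 had 3 counts in all with 2 hexamers. Of the genes that fell, FRMD6, TEAD2, FJX1 and AMOT hold none in these windows, and CRIM1 has no entry. Over all genes 16.7% hold the hexamer, and a contrast between genes called higher and lower was not tested.

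Other genes of the pathway were counted from separate lists, chosen as the members were. Of 66 further Hippo regulators (upstream kinases, STRIPAK phosphatase subunits, polarity and FAT and Dachsous genes, RASSF and VGLL genes) 65 were found by symbol and 57 were tested. Of these 6 were higher and 8 lower (24.6%, background 21.4%), with a median log2 fold change of -0.017. FAT1, a giant protocadherin that promotes Hippo kinase activity, rose from 261 ± 18.5 to 358 ± 17.4 CPM (log2 0.45, adjusted p of 3.13e-17 by edgeR). STK38L, a kinase of the LATS-related NDR family, rose by 0.28. STRN3, a striatin scaffold of the STRIPAK phosphatase that acts on MST kinases, fell by 0.34, and RAP2A, a small GTPase upstream of MAP4K kinases, fell by 0.27. FAT4, DCHS2, VGLL1 and VGLL3 had 0 counts in all libraries, and FAT3 and VGLL2 had 2 each. Without vector replicate 3, 9 of 58 regulators were called, 4 higher and 5 lower, beside 2723 of all 16623 genes tested there. With library sizes alone as scaling 4 of 57 were higher and 12 lower. Over all 16003 tested genes this scaling gave 1351 higher and 2183 lower, in place of 1607 and 1820.

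Of 10 further genes of a published YAP signature 8 were tested, 2 higher and 1 lower (37.5%, background 21.4%). IGFBP3, a secreted insulin-like growth factor binding protein gene, was at 2.61, 3.87 and 4.49 CPM in vector and 6.40, 6.01 and 7.29 CPM in ELAPOR1 libraries, a rise of 0.85 on the log2 scale (adjusted p of 0.000454 by edgeR). MYOF, of the membrane repair protein myoferlin, rose by 0.13, and ASAP1, an ARF GTPase-activating protein gene, fell by 0.32. With limma on log2(FPKM + 1) 1 of the 3 calls was left, and with log2(FPKM + 0.1) limma called 0, with 4 at an unadjusted p under 0.05.

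Of 16 other genes reported as YAP targets 15 were tested, 4 higher and 3 lower (46.7%, background 21.4%). With library sizes alone as scaling 3 were higher and 4 lower, where all tested genes gave 1351 higher and 2183 lower. ANXA1, which encodes annexin A1 and marks regenerating intestinal epithelium, was at 23.2, 25.7 and 27.4 CPM in vector and 58.5, 50.9 and 57.6 CPM in ELAPOR1 libraries, a rise of 1.13 (adjusted p of 6.43e-22 by edgeR). Of the 5 genes of this list with an absolute log2 fold change of 0.5 or more, 3 did not pass. ANXA3 rose by 0.39 and the mitotic kinase gene AURKA fell by 0.29. As background, these genes also answer to pathways other than YAP.

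**Figure D4:**
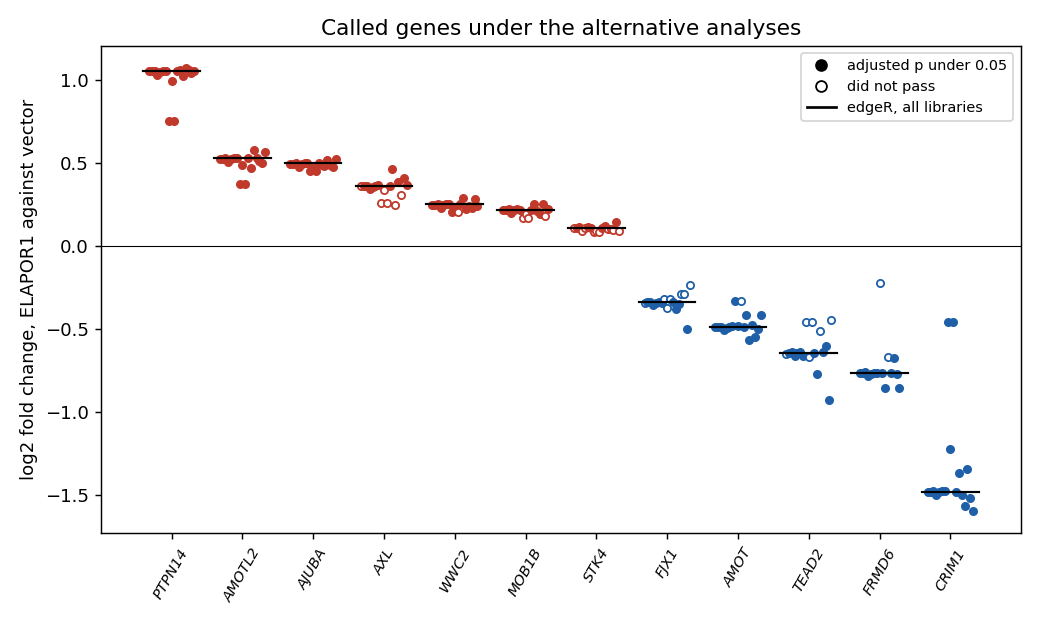
log2 fold change (y axis) of each of the 12 called genes under the 17 alternative analyses, filled where the adjusted p was under 0.05. Each alternative that tested a gene gives 1 point, so FRMD6 has 15. A line marks the value of the edgeR fit on all libraries. The limma values are on the log2(FPKM + pseudocount) scale, which understates changes of low genes such as CRIM1. PTPN14, AMOTL2, AJUBA and CRIM1 are filled throughout.

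The direction of all 12 called genes was the same under those of the 17 alternatives that tested them, which were 15 for FRMD6. Only PTPN14, AMOTL2, AJUBA and CRIM1 also kept their call under each, with adjusted p up to 0.00294, 0.0375, 0.00327 and 0.0478. The count of members called lower was 3 in place of 5 without vector replicate 2 and without ELAPOR1 replicate 3. Over all tested genes, 1505 and 1480 were lower in these 2 fits, in place of 1820. With library sizes alone as scaling, 6 of the 29 tested members were higher and 7 lower. Over all 16003 tested genes the split also moved, to 1351 higher and 2183 lower from 1607 and 1820.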

How the data were processed

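Poly(A) RNA of 6 SW620 libraries was sequenced. Tools named in the submitters' processing notes are HISAT2 2.0.1, cutadapt 1.9.1, DESeq2 and HTSeq 0.6.1, with the build GRCh38. The strand setting and annotation release are not given in the sources used here. The authors deposited read counts per gene without normalization and FPKM values; for the members these lay within 0.00497 of counts divided by exonic length and library total. A second table deposited by the authors holds log2 fold changes, standard errors and Wald scores, p-values and a mean normalized signal. Columns were matched by name, with NC read as negative control and K as the ELAPOR1 construct (older symbol KIAA1324).

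The test was the two-sided quasi-likelihood test of edgeR 4.0.16 (R 4.3.3) after filterByExpr and TMM, with Benjamini-Hochberg adjustment over 16003 genes and a threshold of 0.05. Standard errors come from the log2 fold change and its F value, and intervals are 95%. Mean chi-square per gene between replicates was 2.45 to 3.64, above 1, so none was merged. Alternatives were DESeq2 1.42.0 with each of its dispersion trends, RLE factors, library sizes alone, other filters, a replicate block, limma 3.58.1 on FPKM, ELAPOR1 left out, a threshold of 0.01 and each library left out. Same-numbered libraries correlated at -0.035 to -0.021 in their deviations, so the numbers were not treated as pairs. Scripts were tested on simulated data.

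Members and lists were chosen with earlier results of these data known. By rule, all 33 members are named or counted, and up to 4 called genes with the largest change from each other list; LUM, and other-list genes with few counts, were named after their values were seen. Protein sequences were not used here, and 1 gene that the rule names is not reported here.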

Additional observations from a re-analysis of the deposited data

How the results depend on the processing

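Of the 12 called genes 4 kept their call under all alternatives that tested them and 8 lost it under at least 1, with none reversed. DESeq2 with its default dispersion trend called 5 of 30 tested members higher and 3 lower. Among all 15942 genes it tested, 1040 were higher and 1315 lower. STK4, AXL, TEAD2 and FJX1 lost their calls there, at adjusted p of 0.0950, 0.0708, 0.0558 and 0.122 by DESeq2. limma called 4 of 25 tested members higher and 2 lower on log2(FPKM + 1) and on log2(FPKM + 0.1). On log2(FPKM + 1) with no filter it called 3 of 33 higher and 1 lower, and 7 of 61 other Hippo regulators passed. STK4, MOB1B, AXL, TEAD2 and FJX1 lost their calls in each limma setting, and WWC2, AMOT and FRMD6 in the one with no filter. YAP signature calls were 1, 0 and 0 in these 3 limma settings, each with 4 genes at an unadjusted p under 0.05. The cause was not tested. Over all genes, 3427 calls of 16003 tested became 2133 of 14926, 2098 of 14926 and 1378 of 30470 in these limma settings in that order. The first of these settings split 727 higher and 1406 lower. At an adjusted p under 0.01 by edgeR, where fewer pass by construction, 2245 genes were called. Leaving out 1 library gave 2723 to 3187 genes, 5 to 8 members higher and 3 to 6 lower, 9 to 16 other Hippo regulators, 2 to 3 YAP signature genes and 6 to 7 reported targets.

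Of the 17 members not called, 3 passed somewhere: LATS1 with library sizes alone, VGLL4 there and with DESeq2 and a local trend (adjusted p 0.0493), and TEAD1 with the replicate block (0.0445) and without vector replicate 1. With the block 3361 genes were called, and no other member changed its call. Signs turned only for 5 members without a call. With library sizes alone and the 3 limma settings in turn, the log2 fold change was -0.015, -0.015, -0.016 and -0.015 for SAV1 and -0.0013, -0.0011, -0.0011 and -0.0011 for YAP1. Leaving out 1 library gave -0.029 to 0.048 for SAV1, -0.011 to 0.049 for YAP1, -0.049 to 0.038 for WWC1, -0.031 to 0.11 for WWTR1 and -0.0052 to 0.25 for NT5E. The tested genes below 1 FPKM have the widest intervals of the set. The part of depth in this was not tested.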
